A study of Homo sapiens with 6 samples.

Results

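The genes described here are 35 genes of the Notch pathway, picked by name as receptors, ligands, modifiers, cofactors and HES or HEY target genes. These members, the marker lists and the tests were chosen with earlier results of these data known. Shares set against all genes below are therefore descriptive. They were read in 6 libraries of astrocytes made from H1, an established human embryonic stem cell line. The VM iAst group, labelled as ventral midbrain in regional character, and the Control iAst group, labelled as control with a forebrain character, had 3 libraries each, numbered 2, 3 and 4. In the labels the source is astrocyte but the cell type entry is hESC, no treatment or age is given, and every library came from this 1 line. All 35 genes had reads, among 27439 genes with reads in the series, and 32 passed the filter on low counts that left 15984 genes to test.

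Notch signalling passes between touching cells. A Delta or Jagged ligand on the sending cell pulls on a Notch receptor, gamma-secretase then frees the intracellular part of the receptor, and this part enters the nucleus, binds the DNA-binding protein RBPJ and a Mastermind coactivator, and switches on genes of the HES and HEY repressors. In the developing brain the pathway is known for holding radial glia as progenitors by repressing proneural genes, and later for favouring astrocytes over neurons.

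RNA was measured with 3' end libraries of polyadenylated RNA, in which each transcript is read at its end, so the CPM values given here (gene reads scaled to the same library total) are not divided by gene length and are compared between libraries and not between genes. The libraries held 11617935 to 15391082 estimated reads, so that a count of 0 allows a level of up to 0.195 to 0.258 CPM (3 reads, counting error only). All 12 astrocyte markers examined had reads, and their summed level was 5582 to 6415 CPM in VM iAst libraries and 4844 to 5731 CPM in Control iAst libraries. The sum was mostly VIM, an intermediate filament gene of glia and other cells, at 3947 to 5226 CPM in VM iAst and 3264 to 3999 CPM in Control iAst libraries. Of the 12 astrocyte markers 3 passed edgeR's test as higher in VM iAst, the water channel AQP4 (7.86-fold), the glutamate transporter SLC1A3 (2.67-fold) and the transcription factor NFIA (1.78-fold), which is 25% against 1.06% of all genes called higher. In the 6 fits without 1 library the AQP4 and SLC1A3 calls held in 2 each and the NFIA call in 1. NFIA was not called by limma voom (adjusted p = 0.059) or by limma on the authors' normalized values (adjusted p = 0.13), while AQP4 and SLC1A3 were. The authors' deposited table held 1.26 times the NFIA reads summed here. With the replicate number as a block 3 of the 12 passed as higher and 3 as lower (SOX9, CD44 and GJA1). That is 50%, against 8.13% of all genes (3.63% higher and 4.5% lower). The part of this shift in the Notch gene differences was not tested. GFAP, the astrocyte filament gene, was at 320, 175 and 618 CPM in VM iAst replicates 2, 3 and 4 and at 267, 360 and 459 CPM in Control iAst replicates 2, 3 and 4. In both groups replicate 3 stood apart in its 20 cell cycle genes, which summed to 1545, 5357 and 1373 CPM in VM iAst and to 1078, 3732 and 1030 CPM in Control iAst replicates 2, 3 and 4. Per-library values below follow this order of replicates. Separate cultures are not stated in the labels, and p-values here can reflect only the spread among these 6 samples, which may be technical.

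Of the Notch genes, HES6 alone passed edgeR's quasi-likelihood test (Benjamini-Hochberg adjusted p under 0.05 over all 15984 genes), and it was higher in VM iAst. That is 1 of 31 members read from this test, or 3.23%, against 2.15% of all genes tested (1.06% higher and 1.09% lower). By other tools, DESeq2 called 2 of the 31 (HES6 and DNER; 4.2% of all genes) and limma voom called HES6 alone (1.64% of all genes), and 6 members had an unadjusted edgeR p under 0.05 (12% of all genes did). For 15 of the 31 members the log2 fold change was above 0 and for 16 below it, and the median was -0.00048 against 0.01 over all genes tested, and the median of their sizes was 0.41 against 0.25 on the log2 scale. The 3 libraries of one group did not overlap those of the other for 11 members, 6 higher and 5 lower in VM iAst, which is 35.5% against 17.9% of all genes tested (9.17% higher and 8.75% lower). With the replicate number as a block, 6 members passed, HES6 higher and NOTCH2, JAG2, DLL1, DNER and PSEN2 lower. This was 19.4% against 8.13% of all genes (3.63% higher and 4.5% lower). No label says what the numbers share, and the check of pairing used these same data. Values from the fit with this block are called blocked below.

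**Figure D1:**
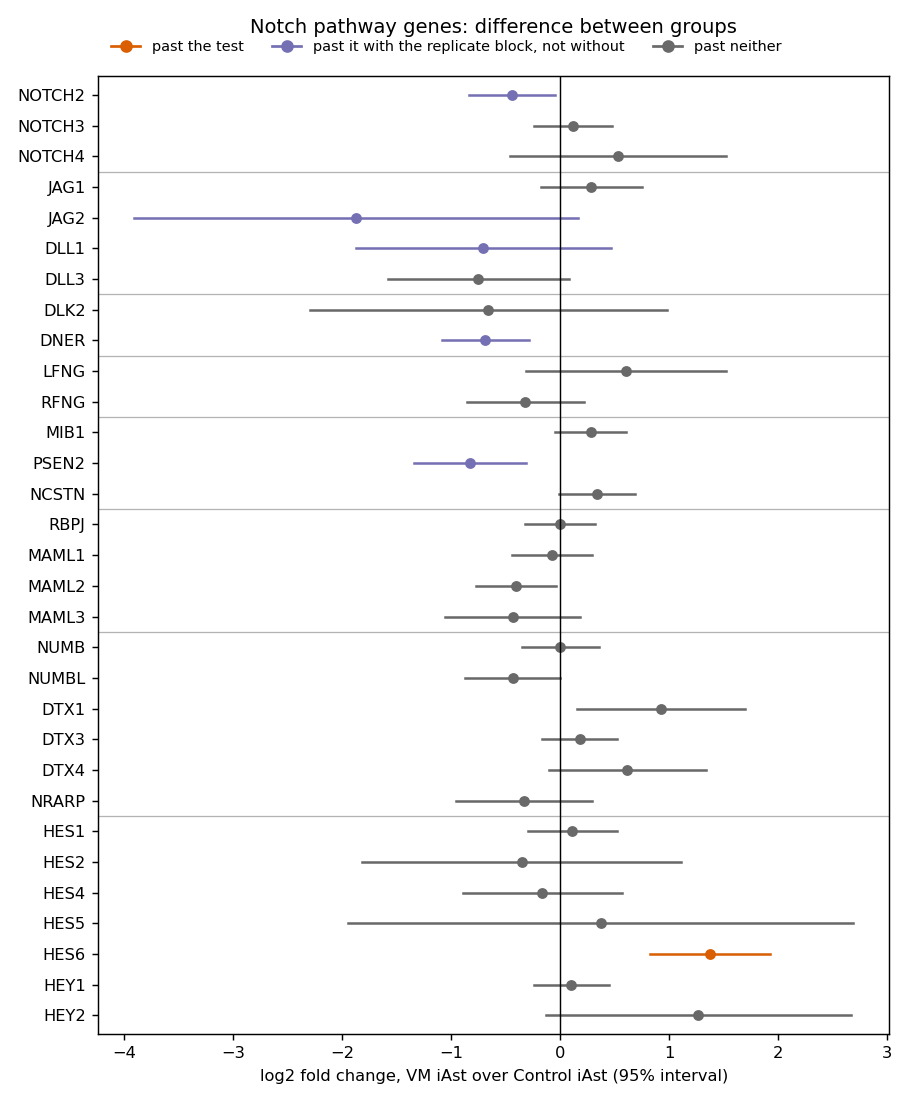
Difference between groups for the 31 members read from edgeR's test, as log2 fold change of VM iAst over Control iAst (x axis, log2 units) with its 95% interval, grouped by role from receptors at the top to HES and HEY genes at the bottom. HES6 sits at 1.37 with an interval from 0.82 to 1.93, the 5 genes that passed edgeR's test with the replicate block and not without it lie left of 0, and most other intervals cross 0.

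Among the receptors, which are single-pass proteins cleaved upon ligand binding, none passed edgeR's test unless the replicate block was used. NOTCH2 (chromosome 1, 119911553 to 120069626, GRCh38) had 96.6, 69.7 and 102 CPM in VM iAst libraries, against 138, 110 and 116 CPM in Control iAst libraries. Every VM iAst library was below every Control iAst library, and the mean was 89.5 ± 17.4 CPM in VM iAst and 122 ± 14.9 CPM in Control iAst (SD, n = 3 each). The log2 fold change was -0.44 ± 0.18 (SE; edgeR adjusted p = 0.34 unblocked, 0.044 blocked), and -0.29 without VM iAst replicate 3. Copies of the first part of NOTCH2 exist elsewhere on chromosome 1. NOTCH2NLA, the copy in the annotation used, had 378, 306 and 344 reads in VM iAst and 434, 370 and 518 reads in Control iAst libraries. The split of any reads that lie in this shared part is uncertain. These libraries read transcripts at their end, away from the first part, and the share of such reads in NOTCH2 was not tested.

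NOTCH3, the receptor known from vascular mural cells and also made by glial progenitors, had 53.2, 53.9 and 55.9 CPM in VM iAst and 52.8, 40.9 and 56.5 CPM in Control iAst libraries. These groups overlapped, and the 95% interval of the log2 difference ran from -0.24 to 0.48. NOTCH4, known from endothelium, was at 2.51 to 4.16 CPM in VM iAst and 1.88 to 2.57 CPM in Control iAst libraries. GPSM3, which overlaps NOTCH4 on the same strand, had 16, 21 and 4 reads in VM iAst and 13, 6 and 3 reads in Control iAst libraries. Its part in the NOTCH4 count was not tested. The 10 endothelial markers examined summed to 8.71 to 14.5 CPM in VM iAst and 17.0 to 21.7 CPM in Control iAst libraries, with none of them at 0 in every library. Of the 5 that could be tested 0 passed edgeR's test, DESeq2 or voom, and 2 had an unadjusted edgeR p under 0.05 (12% of all genes did). The part of these markers in the NOTCH4 level was not tested. For NOTCH1 the reads summed here were 10 to 24 a library and the authors' deposited table of normalized gene signal held 15.9 times as much, so its sum covers a small part of the gene and is not used. The authors' deposited table gave NOTCH1 a signal of 240, 270 and 259 in VM iAst and of 204, 271 and 216 in Control iAst libraries. On the log2(value + 1) scale of that authors' deposited table, limma gave NOTCH1 a log2 fold change of 0.16 ± 0.23 (SE; limma adjusted p = 0.87), and the groups overlapped.

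**Figure D2:**
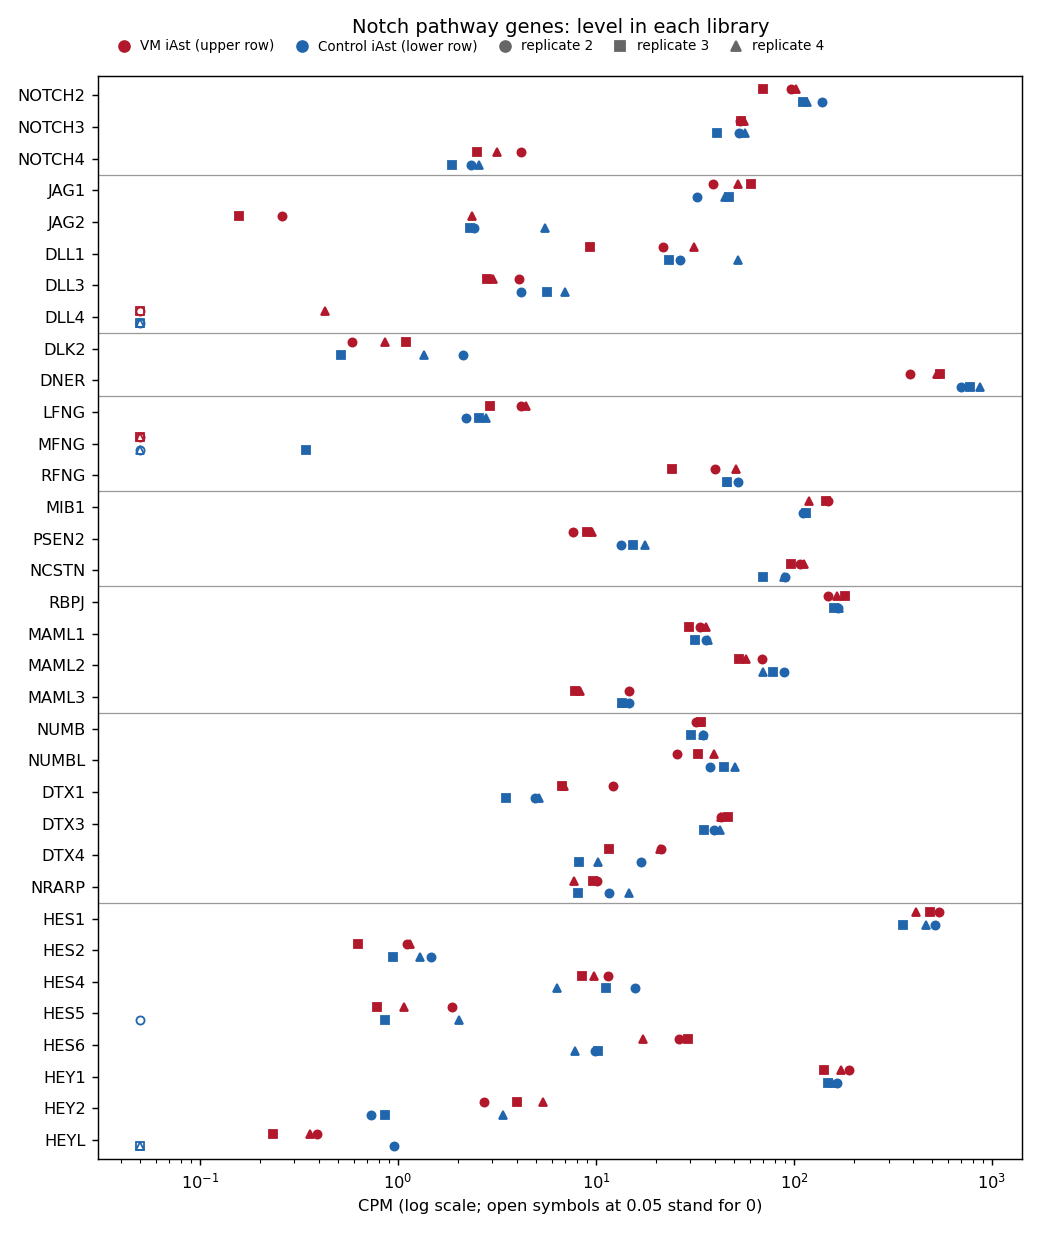
CPM in each library (x axis, log scale) for 34 members, with VM iAst in the upper and Control iAst in the lower row of each gene and the replicate number as the symbol. NOTCH1 is not drawn because its sum is partial, open symbols stand for 0, and HES6, PSEN2 and DNER show 2 rows that do not overlap.

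The ligands activate the receptors or are known to bind or block them, and 0 of the 6 ligand genes tested passed edgeR's test without the block. DNER alone had an unadjusted p under 0.05 and was called by DESeq2, and voom called 0. The log2 fold change was below 0 for 5 of them and above 0 for JAG1, while 51.7% of all genes tested were above 0. JAG1, the Jagged ligand known from astrocytes and radial glia, was at 38.9, 60.8 and 51.9 CPM in VM iAst and 32.5, 46.7 and 45.0 CPM in Control iAst libraries. It was higher in VM iAst in each of the 3 numbered pairs, yet the groups overlapped and the 95% interval of the log2 difference was -0.17 to 0.75 (edgeR adjusted p = 0.68 unblocked, 0.26 blocked). DLL1 (chromosome 6, 170282206 to 170306565), the Delta ligand of differentiating neural cells, had 21.8, 9.33 and 31.3 CPM in VM iAst and 26.4, 23.4 and 52.0 CPM in Control iAst libraries. In both groups replicate 3 was lowest and replicate 4 highest, and VM iAst was lower in each numbered pair, while the groups overlapped. Its log2 fold change was -0.71 ± 0.49 (SE; edgeR adjusted p = 0.68), and the blocked one -0.76 ± 0.20 (adjusted p = 0.030). Unblocked, it was -0.26 without Control iAst replicate 4, -0.355 without VM iAst replicate 3 and -1.12 without VM iAst replicate 4.

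Neuron markers beside DLL1 did not all go one way. The 11 markers, none at 0 in every library, summed to 1190, 716 and 1120 CPM in VM iAst and to 1645, 1273 and 2017 CPM in Control iAst libraries. STMN2, a marker of young neurons, gave much of this sum, at 570, 150 and 626 CPM in VM iAst and at 1087, 640 and 1456 CPM in Control iAst libraries (edgeR adjusted p = 0.54 unblocked, 0.0091 blocked). Of the 10 neuron markers tested 4 had a log2 fold change above 0 and 6 below it. By edgeR 0 passed and 4 had an unadjusted p under 0.05 (12% of all genes did). DESeq2 called 4 (4.2% of all genes) and voom 0. With the block 5 of the 10 passed as lower (STMN2, DCX, NEFL, NEFM and INA), which is 50% against 4.5% of all genes. TUBB3, MAP2, SYT1 and SNAP25 overlapped between the groups, with log2 fold changes of 0.03, 0.11, 0.26 and 0.04. The part of neurons in the DLL1 difference was not tested, and in bulk RNA fewer cells of a type and less RNA per cell cannot be told apart. FAM120B, which overlaps DLL1 on the other strand, had 384, 322 and 380 reads in VM iAst and 393, 296 and 372 reads in Control iAst libraries, and its groups overlapped.

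JAG2 (chromosome 14, 105140981 to 105168824), the second Jagged ligand, rested on few reads: 4, 2 and 33 in VM iAst and 33, 27 and 73 in Control iAst libraries. This was 0.26, 0.157 and 2.36 CPM in VM iAst and 2.41, 2.31 and 5.52 CPM in Control iAst libraries, with replicate 4 highest in both groups and an overlap of the groups through it. The log2 fold change of JAG2 was -1.87 ± 0.91 (SE; edgeR adjusted p = 0.47), and the blocked one -2.48 ± 0.68 (adjusted p = 0.037). Unblocked, it ran from -1.34 without Control iAst replicate 4 to -3.96 without VM iAst replicate 4. DLL3, a Delta protein that does not activate receptors on other cells and is known to hold them back within its own cell, had 4.09, 2.82 and 3.01 CPM in VM iAst and 4.17, 5.65 and 6.96 CPM in Control iAst libraries. The groups did not overlap, by the narrow gap between 4.09 and 4.17 CPM, and DLL3 passed in neither fit (edgeR adjusted p = 0.47 unblocked, 0.31 blocked). DLL4, the endothelial Delta ligand, had 6 reads in VM iAst replicate 4 and 0 in the other libraries, too few to test.

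Of the noncanonical ligands, DNER was lower in VM iAst. DNER (chromosome 2, 229357629 to 229714558) encodes a transmembrane protein of neurons that in mouse cerebellum is known to act on Notch in Bergmann glia. It had 384, 544 and 529 CPM in VM iAst libraries, against 699, 772 and 874 CPM in Control iAst libraries. All VM iAst libraries were below all Control iAst libraries, with means of 486 ± 88.3 CPM in VM iAst and 782 ± 87.6 CPM in Control iAst (SD, n = 3 each). The log2 fold change was -0.69 ± 0.18 (SE) with a 95% interval from -1.09 to -0.29, and the adjusted p was 0.092 by edgeR and 0.092 by voom, 0.0067 by edgeR with no low-count filter, 0.010 by DESeq2 and 0.0014 with the replicate block. The DNER adjusted p was 0.37 by edgeR with a gene-length offset and 0.31 by limma on the authors' normalized values. By edgeR without 1 library it ran from 0.12 to 0.33, and without both replicate 3 libraries it was 0.15. DLK2, a Delta-like protein without the receptor-activating domain, was at 0.585 to 1.098 CPM in VM iAst and 0.513 to 2.12 CPM in Control iAst libraries.

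**Figure D3:**
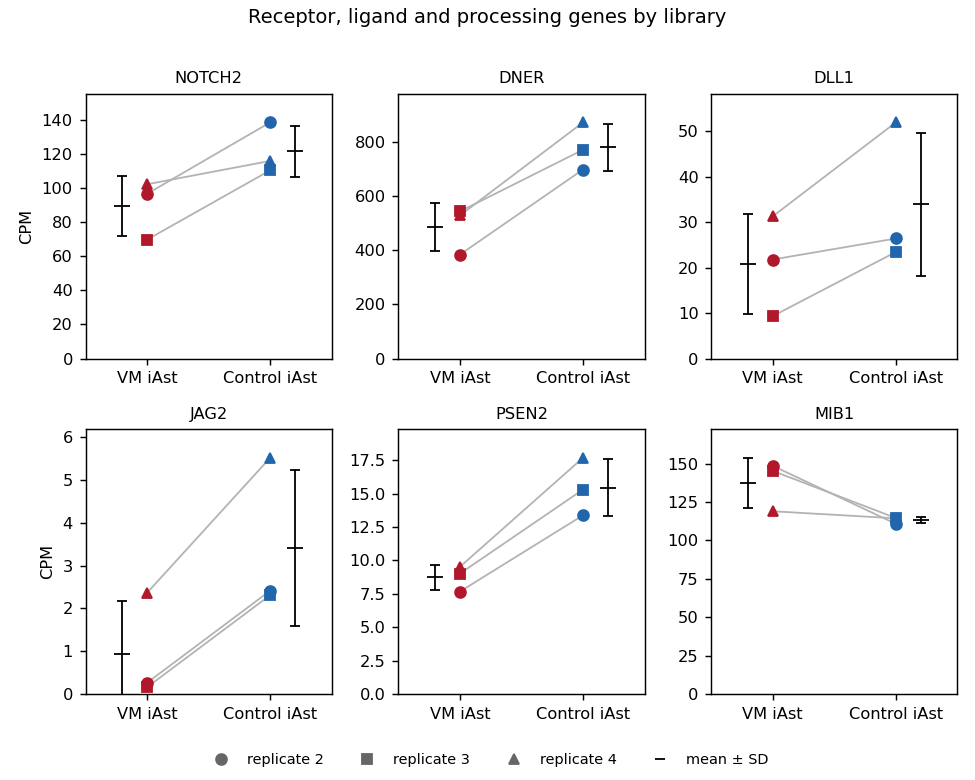
CPM (y axis, from 0) of 6 receptor, ligand and processing genes in each library, VM iAst left and Control iAst right, with lines joining libraries of the same number and the mean ± SD (n = 3) beside the points. The lines of NOTCH2, DNER, DLL1, JAG2 and PSEN2 all run lower in VM iAst, and those of MIB1 all run higher.

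The Fringe enzymes add sugars to Notch receptors and so tune which ligand they answer. LFNG had 4.16, 2.90 and 4.44 CPM in VM iAst and 2.19, 2.57 and 2.80 CPM in Control iAst libraries, without overlap (edgeR adjusted p = 0.66 unblocked, 0.51 blocked). RFNG was at 24.1 to 51.1 CPM in VM iAst and 45.8 to 51.9 CPM in Control iAst libraries (edgeR adjusted p = 0.71), and the lowest value was that of VM iAst replicate 3. MFNG had 4 reads in Control iAst replicate 3 and 0 in the other libraries.

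The genes of ligand handling and receptor cleavage split by direction. MIB1, the ubiquitin ligase that makes ligands active in the sending cell, had 149, 145 and 119 CPM in VM iAst and 111, 115 and 114 CPM in Control iAst libraries. NCSTN, which encodes nicastrin, the substrate-binding subunit of gamma-secretase, had 107, 96.3 and 112 CPM in VM iAst and 90.3, 69.9 and 89.4 CPM in Control iAst libraries. Neither pair of groups overlapped, with log2 fold changes of 0.28 ± 0.15 for MIB1 (SE; edgeR adjusted p = 0.51) and 0.34 ± 0.16 for NCSTN (SE; edgeR adjusted p = 0.43).

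PSEN2 (chromosome 1, 226870184 to 226896105) encodes presenilin 2, a catalytic subunit of gamma-secretase, and it was lower in VM iAst. It had 7.67, 9.02 and 9.52 CPM in VM iAst, against 13.4, 15.3 and 17.7 CPM in Control iAst libraries. The groups did not overlap, with means of 8.74 ± 0.958 CPM in VM iAst and 15.5 ± 2.16 CPM in Control iAst (SD, n = 3 each). The log2 fold change was -0.82 ± 0.23 (SE; edgeR adjusted p = 0.12 unblocked, 0.032 blocked).

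In the nuclear complex RBPJ, the DNA-binding partner of cleaved Notch, had 148, 181 and 165 CPM in VM iAst and 167, 159 and 168 CPM in Control iAst libraries. Its mean was 165 CPM in each group and the 95% interval of the log2 difference was -0.32 to 0.32. Of the Mastermind coactivators MAML2 had 69.0, 52.5 and 57.4 CPM in VM iAst and 89.4, 78.1 and 69.6 CPM in Control iAst libraries. These MAML2 groups did not overlap, though VM iAst replicate 2 came close to Control iAst replicate 4 (log2 fold change -0.41 ± 0.17, SE; edgeR adjusted p = 0.34 unblocked, 0.064 blocked). MAML1 was at 29.6 to 35.8 CPM in VM iAst and 31.6 to 36.9 CPM in Control iAst libraries (edgeR adjusted p = 0.93). MAML3 was at 7.84 to 14.6 CPM in VM iAst and 13.5 to 14.6 CPM in Control iAst libraries (edgeR adjusted p = 0.63).

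The modulators act on the receptor or its cleaved part. NUMB, an endocytic adaptor that lowers Notch signalling, was at 32.0 to 34.0 CPM in VM iAst and 30.3 to 34.6 CPM in Control iAst libraries, with a 95% interval of the log2 difference from -0.35 to 0.35. Its paralog NUMBL had 25.7, 32.6 and 39.4 CPM in VM iAst and 37.8, 44.1 and 50.1 CPM in Control iAst libraries. NUMBL was lower in VM iAst in each numbered pair while the groups overlapped (log2 fold change -0.43 ± 0.20, SE; edgeR adjusted p = 0.42 unblocked, 0.075 blocked).

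DTX1, a Deltex ubiquitin ligase that is itself known as a Notch target, had 12.2, 6.74 and 6.88 CPM in VM iAst and 4.90, 3.51 and 5.14 CPM in Control iAst libraries. The DTX1 groups did not overlap, and the log2 fold change was 0.93 ± 0.35 (SE; edgeR adjusted p = 0.28 unblocked, 0.11 blocked). DTX3 did not overlap either, at 42.6, 46.6 and 42.9 CPM in VM iAst and 39.3, 35.2 and 42.1 CPM in Control iAst libraries, and its log2 fold change was 0.18 ± 0.15 (SE; adjusted p by edgeR 0.75). DTX4 was higher in VM iAst in each numbered pair with overlapping groups, at 11.7 to 21.4 CPM in VM iAst and 8.21 to 16.8 CPM in Control iAst libraries. NRARP, a feedback inhibitor switched on by Notch, was at 7.73 to 10.1 CPM in VM iAst and 8.13 to 14.8 CPM in Control iAst libraries (edgeR adjusted p = 0.74).

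HES6 (chromosome 2, 238238267 to 238240662), a relative of HES1 that in mouse is known to oppose HES1 and to favour neuronal differentiation, rose in VM iAst. It had 26.3, 29.01 and 17.3 CPM in VM iAst libraries, against 9.88, 10.3 and 7.87 CPM in Control iAst libraries. These came from 404, 370 and 242 reads in VM iAst and 135, 120 and 104 reads in Control iAst libraries. All VM iAst libraries stood above all Control iAst libraries, with means of 24.2 ± 6.11 CPM in VM iAst and 9.34 ± 1.29 CPM in Control iAst (SD, n = 3 each). The log2 fold change was 1.37 ± 0.25 (SE), or 2.59-fold, with an edgeR adjusted p of 0.019, 0.044 by voom and 0.00061 with the replicate block. The call was lost without Control iAst replicate 2 or 4 or VM iAst replicate 2 or 3 (edgeR adjusted p = 0.061, 0.099, 0.084 and 0.066), with a gene-length offset (0.056) and with the authors' normalized values (limma, 0.067), while the log2 fold change without 1 library stayed between 1.22 and 1.57. Without both replicate 3 libraries, where cell cycle genes were high, it was 1.30 (edgeR adjusted p = 0.087).

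HES1, the HES repressor that keeps neural progenitors undifferentiated, had 542, 485 and 412 CPM in VM iAst and 517, 353 and 462 CPM in Control iAst libraries. Its groups overlapped, with a log2 fold change of 0.11 ± 0.18 (SE) and a 95% interval from -0.30 to 0.52. HEY1, a HEY repressor, had 190, 142 and 172 CPM in VM iAst and 165, 148 and 156 CPM in Control iAst libraries, with an interval from -0.24 to 0.45. HEY2, its paralog known from heart and vessels, had 2.73, 3.999 and 5.37 CPM in VM iAst and 0.732, 0.856 and 3.40 CPM in Control iAst libraries. HEY2 was higher in VM iAst in each numbered pair and highest in replicate 4 of both groups, and the groups overlapped (95% interval of the log2 difference -0.13 to 2.67; edgeR adjusted p = 0.47 unblocked, 0.092 blocked).

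HES4, a HES gene present in human and not in mouse, was at 8.47 to 11.4 CPM in VM iAst and 6.35 to 15.8 CPM in Control iAst libraries. HES5, an effector of Notch in neural progenitors, had 1.89, 0.784 and 1.07 CPM in VM iAst and 0, 0.856 and 2.04 CPM in Control iAst libraries. The 95% interval of the HES5 log2 fold change ran from -1.95 to 2.69, so differences within that range were not resolved. Its reads were few and varied, at 29, 10 and 15 in VM iAst and 0, 10 and 27 in Control iAst libraries. HES2 was at 0.627 to 1.15 CPM in VM iAst and 0.941 to 1.46 CPM in Control iAst libraries (edgeR adjusted p = 0.92). HEYL, at 0.235 to 0.39 CPM in VM iAst and 0 to 0.951 CPM in Control iAst libraries, was too low to test.

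**Figure D4:**
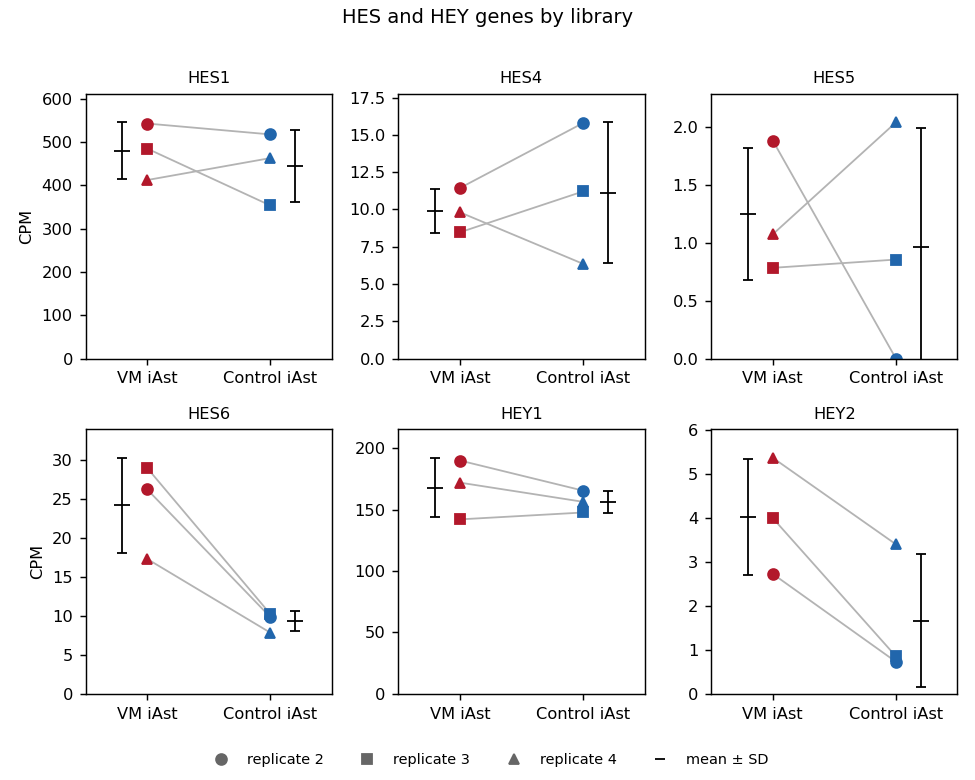
CPM (y axis, from 0) of 6 HES and HEY genes in each library, VM iAst left and Control iAst right, with lines joining libraries of the same number and the mean ± SD (n = 3) beside the points, cut at 0 for HES5. The 3 VM iAst values of HES6 lie between 17.3 and 29.01 CPM, above the Control iAst values of 7.87 to 10.3 CPM, while HES1, HES4, HES5 and HEY1 overlap.

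The promoters of HES6 and of the 5 other HES and HEY genes that were tested and have an entry are shown. Some genes of these families are the pathway's best known targets, which is not claimed for HES6 or HES2. The sequences are RefSeq promoters of GRCh38.p14, 250 bases before to 50 bases after the annotated start, read 5′ to 3′ on the gene's own strand. Capitals mark each match on either strand to GTGGGAA, the form of the RBPJ motif searched, which reads TTCCCAC where the match is on the other strand. The windows lie at chr3:194135898-194136197 on the plus strand for HES1, chr1:6419870-6420169 on the minus strand for HES2, chr1:1000048-1000347 on the minus strand for HES4, chr1:2530214-2530513 on the minus strand for HES5, chr6:125749382-125749681 on the plus strand for HEY2 and chr2:238239989-238240288 on the minus strand for HES6.
HES1: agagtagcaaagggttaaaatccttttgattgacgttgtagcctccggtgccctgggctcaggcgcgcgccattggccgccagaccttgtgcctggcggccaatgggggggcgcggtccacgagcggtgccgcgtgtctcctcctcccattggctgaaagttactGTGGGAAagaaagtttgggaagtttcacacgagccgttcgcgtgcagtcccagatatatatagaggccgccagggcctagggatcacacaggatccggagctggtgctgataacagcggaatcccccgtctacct
HES2: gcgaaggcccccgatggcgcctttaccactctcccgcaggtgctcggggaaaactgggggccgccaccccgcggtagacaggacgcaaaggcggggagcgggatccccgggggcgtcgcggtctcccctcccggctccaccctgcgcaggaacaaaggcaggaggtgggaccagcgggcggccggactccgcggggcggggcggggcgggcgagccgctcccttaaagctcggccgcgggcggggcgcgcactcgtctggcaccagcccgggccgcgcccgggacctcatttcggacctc
HES4: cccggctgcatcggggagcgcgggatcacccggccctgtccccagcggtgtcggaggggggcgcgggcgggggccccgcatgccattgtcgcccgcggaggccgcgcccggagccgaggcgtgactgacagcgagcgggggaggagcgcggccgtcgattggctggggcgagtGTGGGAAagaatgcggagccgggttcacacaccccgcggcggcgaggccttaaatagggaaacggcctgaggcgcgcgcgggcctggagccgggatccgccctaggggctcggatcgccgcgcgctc
HES5: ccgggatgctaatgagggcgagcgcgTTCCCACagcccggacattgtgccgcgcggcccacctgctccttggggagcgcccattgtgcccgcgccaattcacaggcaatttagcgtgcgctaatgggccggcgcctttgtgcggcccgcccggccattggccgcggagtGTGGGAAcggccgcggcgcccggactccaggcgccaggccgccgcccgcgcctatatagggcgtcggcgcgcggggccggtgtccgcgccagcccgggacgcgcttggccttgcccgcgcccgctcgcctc
HEY2: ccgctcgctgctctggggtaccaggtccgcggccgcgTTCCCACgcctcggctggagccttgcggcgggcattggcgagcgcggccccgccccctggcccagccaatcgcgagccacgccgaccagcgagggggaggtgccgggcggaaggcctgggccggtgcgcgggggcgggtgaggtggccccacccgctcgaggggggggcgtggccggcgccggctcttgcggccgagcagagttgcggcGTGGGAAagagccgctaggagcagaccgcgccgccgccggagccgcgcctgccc
HES6: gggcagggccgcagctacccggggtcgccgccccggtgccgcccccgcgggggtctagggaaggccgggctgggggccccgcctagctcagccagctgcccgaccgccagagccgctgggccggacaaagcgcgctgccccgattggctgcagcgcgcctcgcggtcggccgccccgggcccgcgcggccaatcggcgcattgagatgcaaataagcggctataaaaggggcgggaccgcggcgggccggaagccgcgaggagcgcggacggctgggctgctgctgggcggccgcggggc
The motif occurred once in the windows of HES1 and HES4 and at 2 places in those of HES5 and HEY2, and these letters were in neither the HES6 nor the HES2 window. Of the 28 members with a promoter in the RefSeq table, 6 held it (HES1, HES4, HES5, HEY2, HEYL and RBPJ), against 6.25% of 35116 promoter windows of the same length. The shorter TGGGAA, which lies within GTGGGAA, was in 7 members' windows and in 24% of all. The letters CACNAG, the N-box bound by HES proteins, were in 14 members' windows and 38% of all, and CACGNG, a related E-box that shares CACGAG with it, in 12 members' windows and 30.5% of all. A match of letters is a description and not a measured binding site.

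Of 61 other genes of the pathway, 55 were tested, and 1 was higher and 1 lower past edgeR's test. That is 3.64%, against 2.15% of all genes. The median size of their log2 fold changes was 0.18, against 0.25 over all genes tested and 0.41 over the members. Their groups did not overlap for 15 of the 55, 5 higher and 10 lower, which is 27.3% against 17.9% of all genes. CCN3, a secreted matricellular protein reported to bind Notch, rose to 9.30, 23.6 and 17.2 CPM in VM iAst, against 5.85, 6.50 and 4.84 CPM in Control iAst libraries (log2 fold change 1.54 ± 0.34, SE; edgeR adjusted p = 0.047). CNTN1, a neuronal contactin reported as a Notch ligand, fell to 1, 0 and 0 reads in VM iAst, against 18, 17 and 19 reads in Control iAst libraries (edgeR adjusted p = 0.037). The authors' deposited table held 1.61 times the CNTN1 reads summed here, voom called neither gene, and leaving out 1 library ended the CCN3 call in 5 of 6 fits and the CNTN1 call in each fit.

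With the replicate block 3 of the 55 were higher and 5 lower, which is 14.55% against 8.13% of all genes (3.63% higher and 4.5% lower). TLE1, a Groucho corepressor that works with HES proteins, had 161, 165 and 164 CPM in VM iAst and 97.0, 126 and 116 CPM in Control iAst libraries (edgeR adjusted p = 0.13 unblocked, 0.013 blocked). BHLHE41, a helix-loop-helix repressor related to the HES family, had 150, 173 and 93.3 CPM in VM iAst and 87.7, 52.6 and 51.4 CPM in Control iAst libraries (edgeR adjusted p = 0.091 unblocked, 0.0018 blocked). These were the higher ones beside CCN3.

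FBXW7, part of the ubiquitin ligase that clears cleaved Notch, had 51.6, 52.2 and 47.0 CPM in VM iAst and 72.1, 76.7 and 75.5 CPM in Control iAst libraries (edgeR adjusted p = 0.069 unblocked, 0.010 blocked). NEDD4L, MFAP5 and EGFL7 were lower in the blocked fit as well, beside CNTN1 (edgeR adjusted p = 0.27, 0.093 and 0.093 unblocked, 0.036, 0.015 and 0.031 blocked). In the authors' deposited table NEDD4L had the opposite sign, with a log2 fold change of 0.13 ± 0.41 (SE; limma). DLK1, a noncanonical ligand, was at 1344 to 1585 CPM in VM iAst and 1521 to 1907 CPM in Control iAst libraries (edgeR adjusted p = 0.74). APH1A, a gamma-secretase subunit, was at 204 to 243 CPM in VM iAst and 216 to 274 CPM in Control iAst libraries (edgeR adjusted p = 0.83). CTBP2, a corepressor, was at 186 to 216 CPM in VM iAst and 233 to 277 CPM in Control iAst libraries (edgeR adjusted p = 0.38). The receptor-cutting proteases ADAM10 and ADAM17 did not pass (edgeR adjusted p = 0.97 and 0.90). Of 10 proneural genes, which HES proteins repress, 2 could be tested and 0 passed with edgeR, while 0 had an unadjusted p under 0.05 and DESeq2 and voom called 0.

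Marker lists of other cell types are given beside these genes. The 8 radial glia and progenitor markers summed to 1036 to 1116 CPM in VM iAst and 1091 to 1161 CPM in Control iAst libraries. Of these 8, 1 passed edgeR's test as higher and 1 as lower, which is 25% against 2.15% of all genes. With the block 2 passed as higher and 1 as lower, which is 37.5% against 8.13% of all genes. The 7 oligodendrocyte lineage markers summed to 114 to 133 CPM in VM iAst and 156.5 to 198 CPM in Control iAst libraries. SOX10 was at 0 in every library. Of the 4 tested, 2 had a log2 fold change above 0 and 2 below it. In edgeR's test 1 passed as lower, which is 25% against 1.09% of all genes, and 0 as higher. With the block 1 passed as higher and 2 as lower, which is 75% against 8.13% of all genes. The 10 mesenchymal markers summed to 724 to 917 CPM in VM iAst and 1228 to 1917 CPM in Control iAst libraries, none of them at 0 in every library. Of these 10, 4 passed edgeR's test as lower (COL1A1, COL3A1, PRRX1 and FOXC1), which is 40% against 1.09% of all genes, and 0 as higher. The list went both ways, since POSTN, DCN and LUM had log2 fold changes of 0.91, 2.11 and 2.38 without overlap of the groups. When blocked 1 of the 10 passed as higher (POSTN) and 5 as lower, which is 60% against 8.13% of all genes.

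The 8 ependymal and ciliated markers summed to 63.4 to 94.7 CPM in VM iAst and 7.56 to 20.8 CPM in Control iAst libraries, with TTR at 0 in every library, though the authors' deposited table held 13.4 times the CCDC39 reads summed here. FOXJ1, a transcription factor of ciliated cells, gave most of the sum in VM iAst, at 50.7 to 82.4 CPM in VM iAst and 3.48 to 16.1 CPM in Control iAst libraries (edgeR adjusted p = 0.087 unblocked, 0.0013 blocked). Of the 4 tested, 0 passed edgeR's test and 2 had an unadjusted p under 0.05 (12% of all genes did). DESeq2 called 2 (4.2% of all genes) and voom 1 (1.64% of all genes). With the block 2 passed as higher, which is 50% against 3.63% of all genes. Mural marker sums overlapped, at 235 to 389 CPM in VM iAst and 247 to 328 CPM in Control iAst libraries. By edgeR 0 of 10 passed and 3 had an unadjusted p under 0.05 (12% of all genes did). DESeq2 called 3 (4.2% of all genes) and voom 0. With the block 2 mural markers passed as higher and 2 as lower, which is 40% against 8.13% of all genes. Of the 20 cell cycle genes 19 had a log2 fold change above 0, and 0 passed edgeR's test (unadjusted, 0 were under 0.05), DESeq2 or voom. When blocked 5 of the 20 passed as higher, which is 25% against 3.63% of all genes. The part of these markers in the differences of HES6, DNER, NOTCH2 and PSEN2 was not tested.

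**Figure D5:**
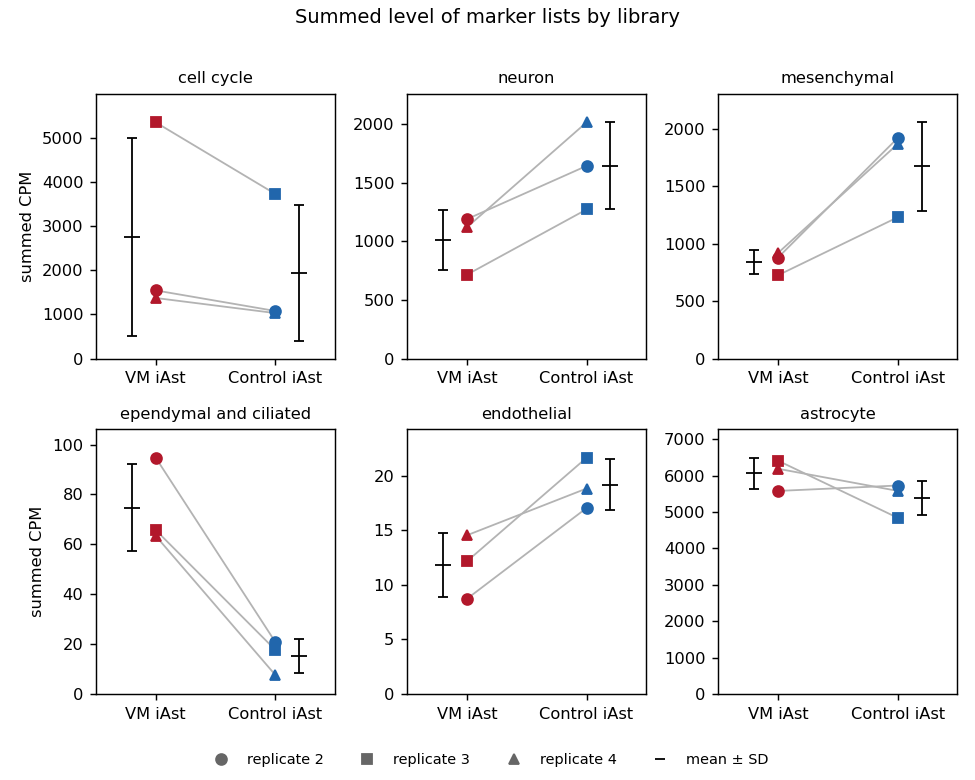
Summed CPM (y axis, from 0) of 6 marker lists in each library, VM iAst left and Control iAst right, with lines joining libraries of the same number and the mean ± SD (n = 3) beside the points. Cell cycle genes are highest in replicate 3 of both groups, the neuron sum is lowest there, and the ciliated markers are at 63.4 to 94.7 CPM in VM iAst against 7.56 to 20.8 CPM in Control iAst libraries.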

How the data were processed

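The authors deposited, for each library, Salmon output with estimated counts per transcript, TPM and effective transcript lengths, per the file headers, and a table of normalized gene signal, with scaling factors that the sources used here do not give. The submitters' processing notes name Salmon, DESeq2 1.27.12 and GRCh38.p13. Estimated counts were summed per gene with GENCODE release 29 (GRCh38), which matched 90.6% of 226608 transcripts. Unmatched ones held 0.992% to 1.12% of reads. Among pathway genes the sums of NOTCH1, ITCH and CNTN1 differed by more than 10% from the authors' level, as did 16 of 95 marker genes and the proneural MYT1 and NEUROG2, and NOTCH1 was therefore taken from the authors' table. The authors' TPM values entered as weights of gene lengths in the length offset alone. With reads at transcript ends, counts may not scale with length, so this offset may not suit them.

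Sums were rounded, filtered with filterByExpr, scaled by TMM and tested in R 4.3.3 with the robust quasi-likelihood test of edgeR 4.0.16, VM iAst over Control iAst, with no covariate. A standard error is the size of the log2 fold change over the root of its F value, and 95% intervals use the fit's degrees of freedom. Library correlations of log2 CPM were 0.94 to 0.956 within and 0.902 to 0.943 between groups. Deviations from group means correlated at 0.234, 0.345 and 0.204 between libraries of the same number, each above 0.1, and at most at 0.0237 for other pairs. No label says what the numbers share, and deviations within a group of 3 depend on each other. Blocked values or counts are given where they change a call.

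Alternatives used DESeq2 1.42.0 and limma 3.58.1 (voom, and the authors' signal as log2(value + 1) for genes with at least 10 in 3 libraries), and the fits were tested on simulated data. The sources used here do not give the strand setting of the counting, so genes that overlap others on the opposite strand (DLL1, DLK2, RFNG, NCSTN and MAML3) are uncertain. NOTCH4, which overlaps GPSM3 on its own strand, is uncertain too. Every member is described by role, with values by library for those past either fit, without overlap or among the 8 with the most CPM. For other pathway and proneural genes these are the ones past either fit and the 3 with the most CPM. The members, lists and tests were chosen with earlier results of these data known. Values of some single genes outside the members are not reported here. Figures were drawn with matplotlib 3.10.9.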

Additional observations from a re-analysis of the deposited data

How the results depend on the processing

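The count of all genes past the test, 344, was 1012 with no low-count filter, 728 with DESeq2, 174 with a gene-length offset, 166 with the authors' normalized values, 1300 with the replicate block and 131 to 258 without 1 library. The count of Notch members, 1, was 2 with no low-count filter, 2 with DESeq2, 0 with the length offset, 0 with the authors' normalized values, 6 with the replicate block, 0 to 1 without 1 library and 0 without both replicate 3 libraries, an alternative chosen after seeing the data. The count of other pathway genes, 2, was 5 with no filter, 1 with a filter of 2 CPM in 3 libraries, 6 with DESeq2, 0 with voom, 0 with the offset, 0 with the authors' values, 8 with the replicate block, 0 to 1 without 1 library and 0 without both replicate 3 libraries.

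Of 524 refitted fold changes of members, 482 kept direction and side of the threshold, 7 lost the call (all of HES6), 7 gained it and 28 changed sign, all of these for genes that no fit called. NOTCH3 (0.12) was at -0.075 with the offset, -0.072 with the authors' values, -0.0013 without both replicate 3 libraries and -0.0076 to 0.21 without 1 library. RBPJ (0.00013) was at -0.010 with RLE and with DESeq2, -0.0028 with the 2 CPM filter, -0.0048 with voom, -0.0044 with the replicate block, -0.096 without both replicate 3 libraries and -0.072 to 0.064 without 1. NUMB (-0.00048) was at 6.8e-05 with upper-quartile scaling, 0.0079 with no filter, 0.021 with the offset, 0.0074 with the authors' values, 0.0012 with the block, 0.0011 with protein-coding genes alone and -0.061 to 0.031 without 1 library. HES1 was at -0.037 without both replicate 3 libraries and -0.030 to 0.23 without 1, HES4 at -0.45 to 0.18, HES5 at -0.21 to 1.56 and HEY1 at -0.0014 to 0.21. The cause of these shifts was not tested. Few reads limit JAG2, HES5, HEY2, DLK2 and HES2, and DLL4, MFNG and HEYL could not be tested.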
